A study of Mus musculus with 18 samples.

Results

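The genes described here are the nuclear genes of the mitochondrial respiratory chain and ATP synthase. They were chosen by name, as symbols beginning with Nduf, Uqcr or Atp5, the genes Sdha, Sdhb, Sdhc, Sdhd and Cyc1, and the subunits of the Cox4 to Cox8 families. A probe set counted where the platform annotation ties it to a single symbol, and the probe set of highest mean signal stood for its gene. This gave 90 genes of 19938 symbols measured. Of these, 83 encode subunits or their isoforms and 7 are assembly factors of complex I with an Ndufaf name. By complex there were 34 genes of complex I (6 core and 28 accessory subunits), 7 assembly factors of complex I, 4 genes of complex II, 9 of complex III, 19 of complex IV and 17 of complex V. Ndufb1, Ndufb4, Ndufaf8 and Cox7c were not analysed here, and Ndufa4 and Ndufa4l2 were counted with complex IV, to which the Ndufa4 protein is now assigned. No measured value was used in the choice of genes except the brightness of a probe set.

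Complexes I to IV pass electrons from NADH and succinate to oxygen, and all of these but complex II pump protons across the inner mitochondrial membrane. Complex V, the ATP synthase, uses the return of the protons to make ATP. A few subunits of complexes I, III, IV and V are encoded in mitochondrial DNA and all the others in the nucleus. Building a complex thus needs products of both genomes, as well as assembly factors that do not remain in the finished enzyme. SSBP1 is the single-stranded DNA-binding protein of mitochondria, known for its part in the replication of mitochondrial DNA, and HSF1 is the transcription factor that drives the heat shock response.

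RNA levels were measured on 18 Affymetrix Mouse Gene 1.0 ST arrays in immortalized mouse embryonic fibroblast (MEF) cells of ICR background. An adenovirus was applied for 2 h to bring in a hairpin against HSF1 (HSF1-KD), a hairpin against SSBP1 (SSBP1-KD) or scrambled RNA (SCR), and normal medium followed for 70 h. The last step was heat shock, 1 h at 42 °C (HS), or none, at 37 °C (Cont). This gave 6 groups of 3 arrays, and the cells of all groups had received virus. The series asks which genes the HSF1 and SSBP1 proteins regulate with and without heat shock. One immortalized cell line and 1 hairpin per gene limit what the groups stand for, and the labels do not say whether replicates were separate cultures. The p-values therefore reflect how far these arrays scatter, and that scatter may be technical. In a culture measured in bulk, fewer cells of one kind and less RNA per cell cannot be told apart.

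All values are deposited log2 signals, in which a difference of 1 is a doubling, and a gene is called higher or lower where the moderated test of limma over all probe sets gave an adjusted p (Benjamini-Hochberg) under 0.05. Array medians lay between 7.88 and 7.94, and the lowest correlation between arrays of one group was 0.985. One array, replicate 1 of SSBP1-KD Cont, stood apart, with a mean absolute deviation from its group mean of 0.152 over all probe sets, against 0.07 to 0.11 on the others. Ssbp1 itself read 9.54, 9.36 and 9.36 on the SCR Cont arrays and 9.02, 9.25 and 9.32 in SSBP1-KD Cont. In HS it read 9.07, 9.09 and 9.03 in SCR and 8.71, 8.57 and 8.67 in SSBP1-KD cells. Each SSBP1-KD array was thus below each SCR array of its condition. The probe set was tied to Ssbp1 by the platform annotation alone, and its place on the genome was not checked. The mean fell by 0.41 in HS (SE 0.08, adjusted p = 0.00155) and stood at -0.22 in Cont, which missed the threshold (SE 0.08, adjusted p = 0.0555). Hsf1 has no probe set with a single symbol and was not analysed here. The summed level of 8 fibroblast markers (log2 of the sum) was 15.554 to 15.591 in SCR Cont, 15.534 to 15.575 in SCR HS, 15.296 to 15.307 in SSBP1-KD HS and 15.274 to 15.321 in SSBP1-KD Cont. In Cont 5 of the 8 were called lower in SSBP1-KD, among them the collagen gene Col1a2 by 1.08, and 1 higher. Macrophage markers summed to 9.774 to 9.9 in SCR Cont and 9.917 to 10.265 in SCR HS. In SSBP1-KD cells they summed to 10.165 to 10.261 (Cont) and 10.477 to 10.486 (HS), with 2 of 4 called higher in Cont and 1 in HS. Among markers of other cell types, 1 of 4 epithelial genes was called lower and 1 of 4 endothelial, 1 of 5 striated muscle, 1 of 4 germ cell and 0 of 4 adipocyte genes higher in SSBP1-KD Cont. The part of these shifts in the results below was not tested.

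In SSBP1 knockdown cells at 37 °C, the respiratory chain genes moved in both directions and by little. Of the 90 genes 7 were called higher and 11 lower, against 14.6% and 16.5% of all 19938 symbols called higher and lower. The median difference of SSBP1-KD from SCR was -0.007 over the 90 genes and 0.051 over all symbols, and the single differences ran from -0.51 for Ndufaf3 to 0.48 for Ndufs6. None exceeded 1.5-fold in either direction. For all 72 genes that were not called, the 95% interval of the difference lay within 1.5-fold. After heat shock 15 genes were called higher and 6 lower in SSBP1-KD than in SCR, against 14.3% and 14.4% of all symbols, with a median of 0.047 against 0.025. The 95% intervals of all 69 genes not called lay within 1.5-fold there as well. The estimate of 1 called gene, Ndufaf4, lay just past 1.5-fold, at 0.585, but the call tests a difference from 0 and not from 1.5-fold. Most of the calls fell on complex I and its assembly factors, which hold 41 of the 90 genes: 14 of 18 calls in Cont and 12 of 21 in HS.

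**Figure D1:**
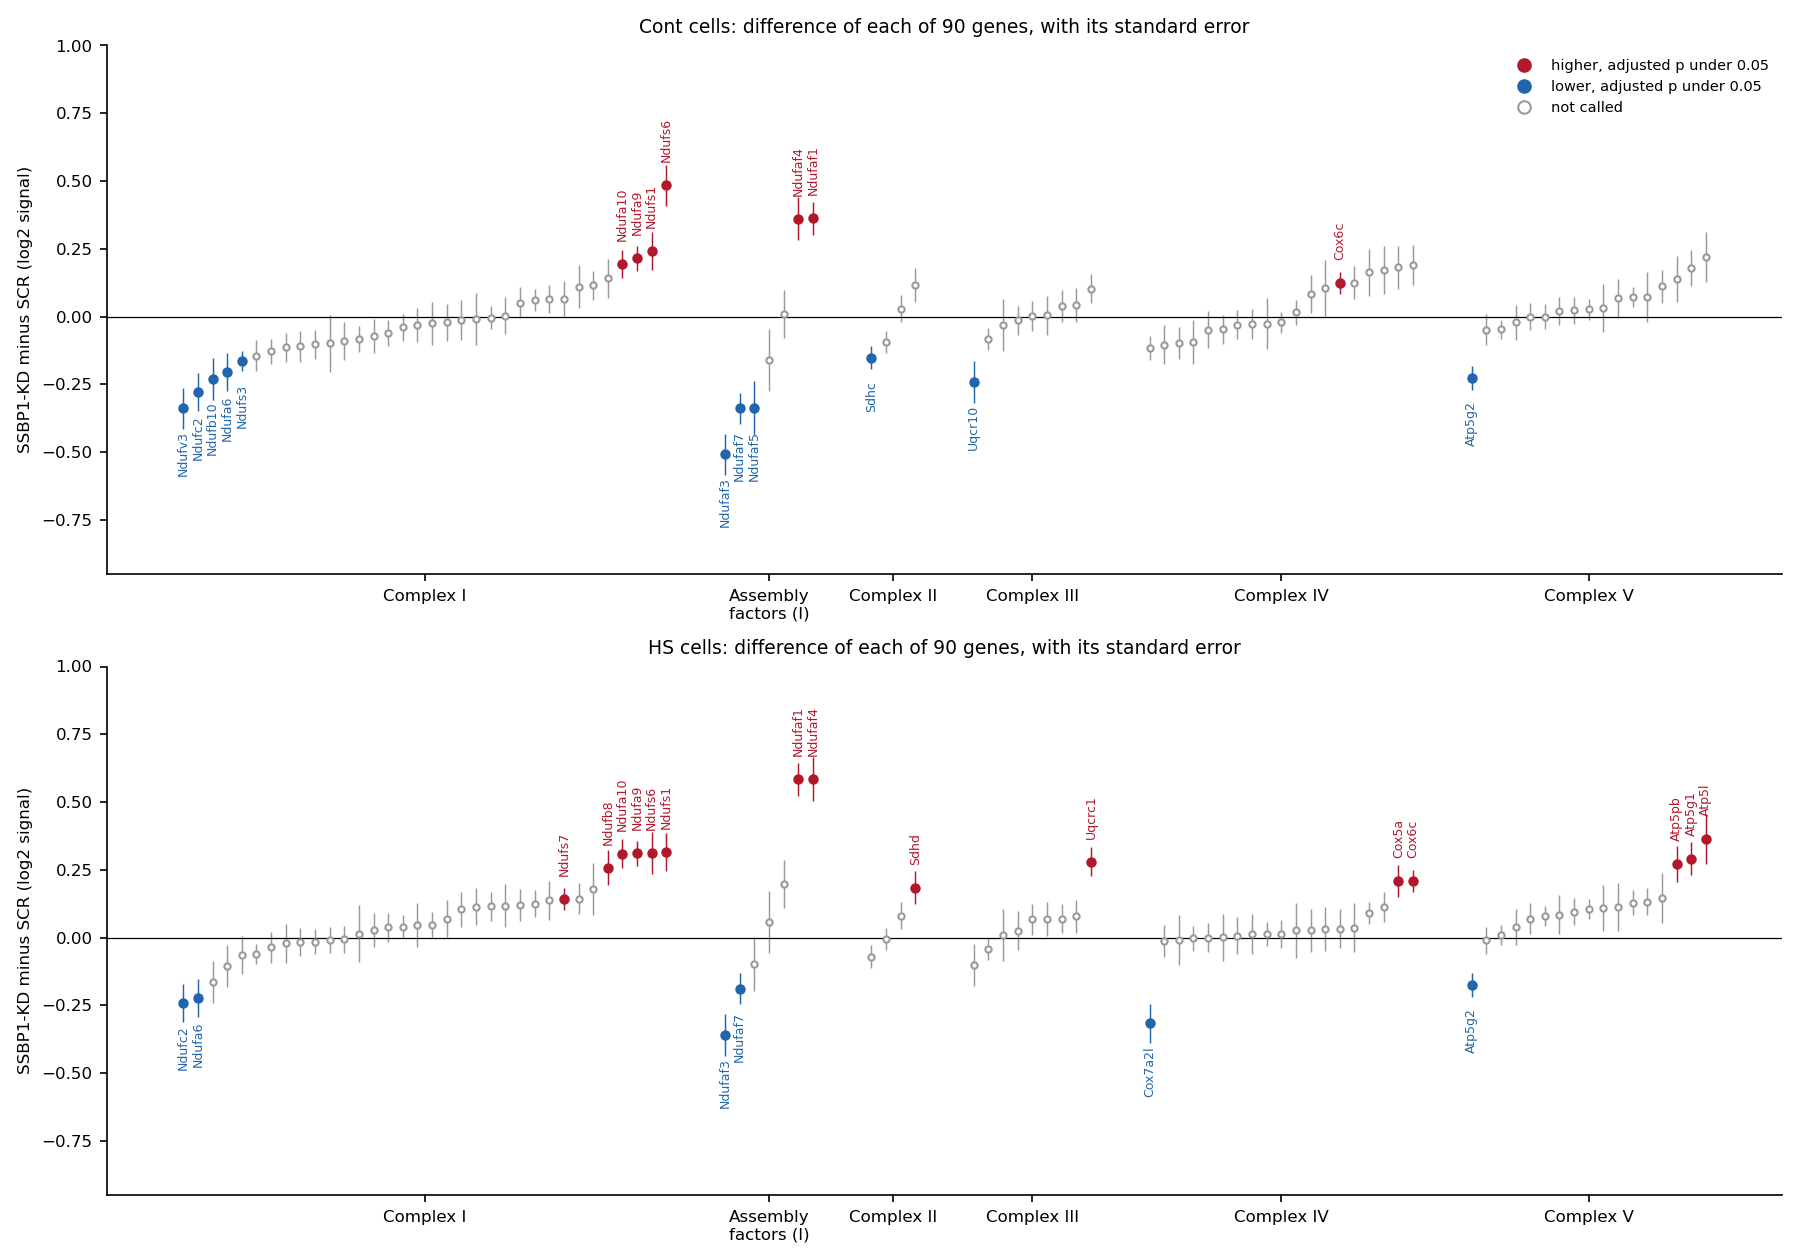
Difference in log2 signal between SSBP1-KD and SCR for each of the 90 genes, sorted within each complex, in Cont cells (upper) and HS cells (lower). Bars are standard errors of the fit, red and blue points are genes called higher and lower, and open points were not called. The farthest points are assembly factors and subunits of complex I in Cont cells and assembly factors of complex I in HS cells. The genes of complexes II to V stay between -0.24 and 0.22 in Cont cells. In HS cells 4 of them reach 0.27 to 0.36 and Cox7a2l -0.32, while complex I subunits span -0.24 to 0.32.

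The assembly factors of complex I differed most, and they split. Ndufaf1 belongs to the group of factors that builds the membrane arm, Ndufaf3 and Ndufaf4 act together in building the part that holds the ubiquinone site, and Ndufaf5 and Ndufaf7 modify arginines of core subunits. Of the 7 factors, 2 were called higher and 3 lower in SSBP1-KD Cont, and 2 higher and 2 lower in SSBP1-KD HS. Ndufaf3 and Ndufaf4 work as a pair but moved in opposite directions, so the stretches upstream of their starts are shown, with that of Ndufaf1. Each is the 250 bases before the start of the gene's RefSeq window for mouse build GRCm38.p6. Capitals mark the letters searched for below: CCGGAAG, the core bound by ETS factors such as GABP, in Ndufaf1, and GCATGCGC, bound by NRF1, as its reverse complement in Ndufaf4. With the bases gc that follow the capitals, Ndufaf4 also holds GCATGCGC in forward direction. That match overlaps the marked one and is not marked separately.
Ndufaf1, chr2:119662835-119663084, minus strand, ETS letters at -18 to -12: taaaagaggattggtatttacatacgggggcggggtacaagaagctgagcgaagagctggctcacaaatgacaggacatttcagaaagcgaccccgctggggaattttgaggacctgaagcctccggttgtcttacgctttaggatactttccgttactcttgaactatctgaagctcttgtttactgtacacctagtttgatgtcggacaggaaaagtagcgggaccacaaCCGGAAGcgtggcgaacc
Ndufaf4, chr4:24897833-24898082, plus strand, NRF1 letters at -113 to -106: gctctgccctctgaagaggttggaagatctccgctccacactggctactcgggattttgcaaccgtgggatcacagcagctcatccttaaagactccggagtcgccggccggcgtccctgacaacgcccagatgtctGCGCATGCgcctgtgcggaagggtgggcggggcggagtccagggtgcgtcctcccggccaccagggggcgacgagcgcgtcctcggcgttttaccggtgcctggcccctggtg
Ndufaf3, chr9:108567437-108567686, minus strand, no such letters: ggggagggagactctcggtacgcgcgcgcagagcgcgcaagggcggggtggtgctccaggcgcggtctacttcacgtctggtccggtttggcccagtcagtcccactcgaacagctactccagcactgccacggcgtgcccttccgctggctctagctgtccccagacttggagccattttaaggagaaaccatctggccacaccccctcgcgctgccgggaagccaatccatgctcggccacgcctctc
Positions count from the window's start site, which is 1, the base before it being -1. For Ndufaf3 and Ndufaf4 this site is the first base of the annotated gene, and for Ndufaf1 it lies 5 bases inside the gene. Beyond the printed part, the Ndufaf4 window also holds the NRF1 letters at 2 to 9.

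Ndufaf1 read 10.50, 10.52 and 10.40 in SCR Cont and 10.74, 10.86 and 10.91 in SSBP1-KD Cont. After heat shock it read 9.95, 9.84 and 9.90 in SCR and 10.58, 10.42 and 10.46 in SSBP1-KD cells. The knockdown arrays lay above the SCR arrays in both conditions without overlap, and the arrays of heat-shocked SSBP1-KD cells fell in the range of unstressed SCR cells or within 0.1 of it. The difference was 0.36 in Cont (SE 0.06, adjusted p = 0.0005) and 0.58 in HS (SE 0.06, adjusted p = 9.46e-06). Ndufaf4 read 8.395, 8.45 and 8.17 in SCR Cont against 8.68, 8.72 and 8.70 in SSBP1-KD Cont. After heat shock the SCR arrays read 8.33, 8.27 and 7.999 and the SSBP1-KD arrays 8.85, 8.74 and 8.76. It was higher by 0.36 in Cont (SE 0.08, adjusted p = 0.00384) and by 0.59 in HS (SE 0.08, adjusted p = 8.64e-05), again with no overlap of the arrays. Its partner Ndufaf3 went the other way. It read 8.93, 9.06 and 9.01 in SCR Cont and 8.51, 8.51 and 8.47 in SSBP1-KD Cont, a fall of the mean by 0.51 (SE 0.08, adjusted p = 0.00019). In HS the SCR arrays read 8.77, 9.03 and 8.99 and the SSBP1-KD arrays 8.55, 8.56 and 8.60, a fall by 0.36 (SE 0.08, adjusted p = 0.00286). Ndufaf3 was the largest fall of any of the 90 genes in both conditions.

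Ndufaf5 read 7.99, 7.95 and 7.80 in SCR Cont and 7.31, 7.71 and 7.71 in SSBP1-KD Cont. The difference was -0.34 (SE 0.10, adjusted p = 0.0219), and its lowest value came from the array that stood apart. Without that array the difference was -0.20 (adjusted p = 0.0886), and the call was also lost without replicate 1 (adjusted p = 0.0803) or 2 (adjusted p = 0.0685) of SCR Cont. Its HS arrays stood at 7.64, 7.46 and 7.63 in SCR and 7.56, 7.40 and 7.48 in SSBP1-KD cells, and the difference was -0.10 (SE 0.10, adjusted p = 0.58). Ndufaf7 was lower by 0.34 in Cont (SE 0.06, adjusted p = 0.000518) and by 0.19 in HS (SE 0.06, adjusted p = 0.0285), where the call was lost without any one of 4 arrays (adjusted p up to 0.133). Ndufaf2 and Ndufaf6 were not called in either condition, with differences between -0.16 and 0.20.

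**Figure D2:**
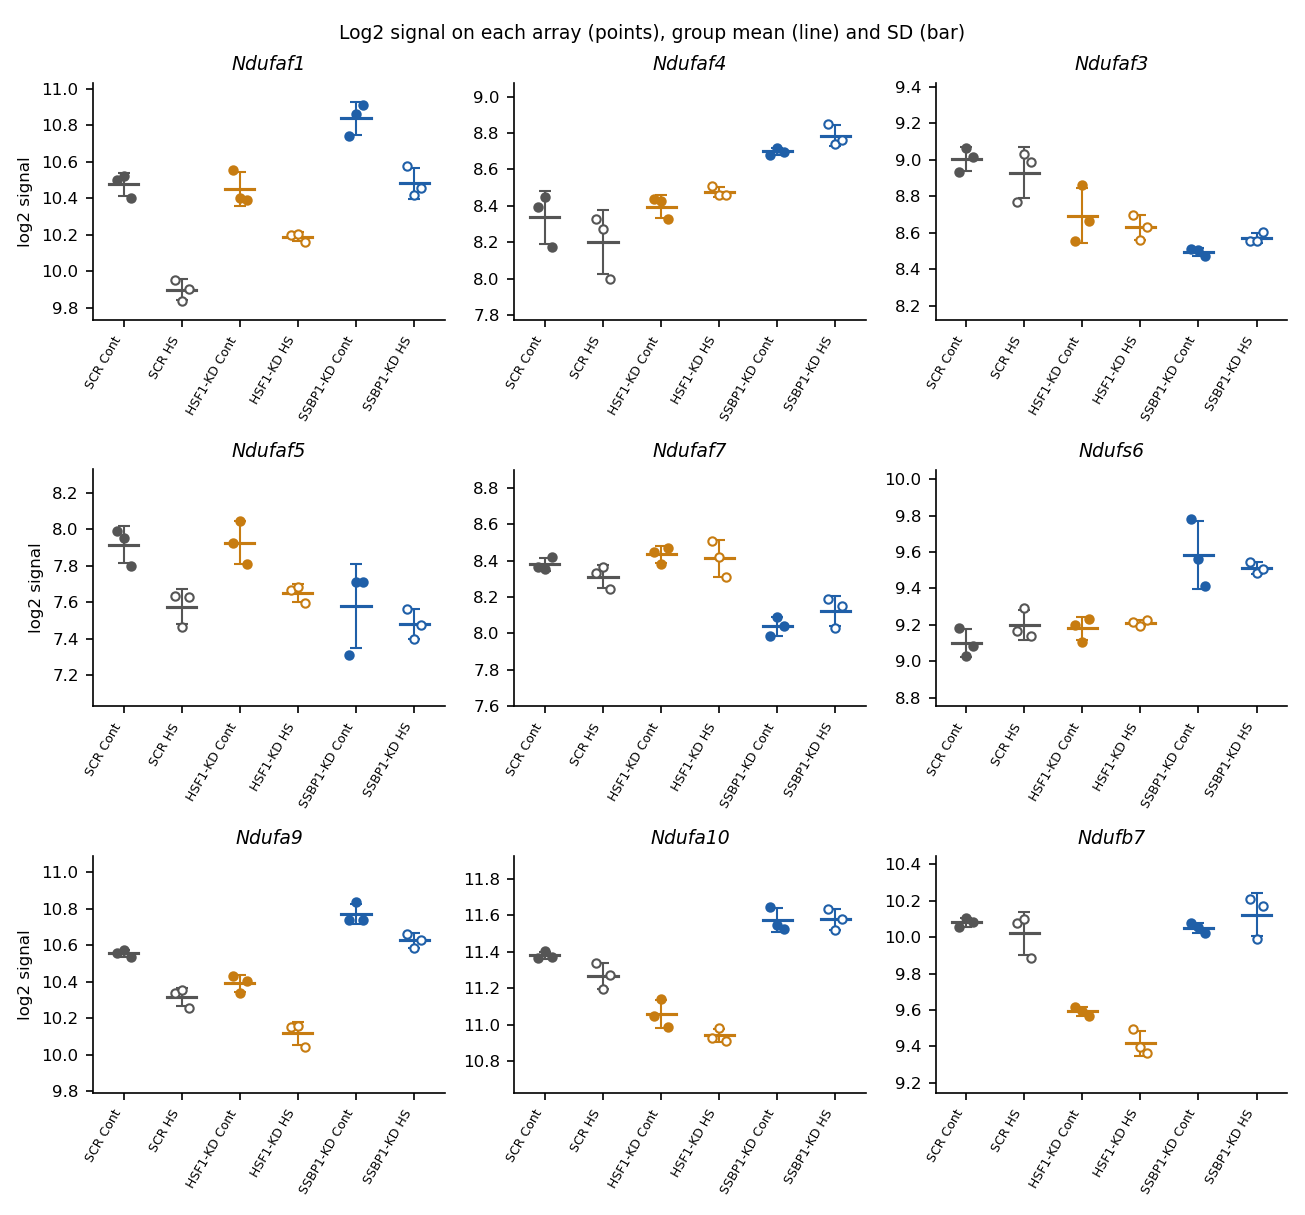
Log2 signal of 5 complex I assembly factors and 4 accessory subunits on each of the 18 arrays; points are arrays (filled, Cont; open, HS), lines are group means and bars SD (n = 3), and every panel spans the same width of log2 signal. Ndufaf7, Ndufa10 and Ndufb7 were chosen after their values were seen. SSBP1-KD arrays lie above SCR for Ndufaf1, Ndufaf4, Ndufs6, Ndufa9 and Ndufa10 and below it for Ndufaf3 and Ndufaf7 in both conditions, and Ndufb7 is low in HSF1-KD cells.

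Among the core subunits of complex I, which carry its cofactors and the electrons, 1 of 6 was called higher and 1 lower in Cont, and 2 were called higher in HS. Ndufs1, the largest iron-sulphur subunit of the arm that takes electrons from NADH, read 9.80, 9.80 and 9.61 in SCR Cont and 9.83, 10.04 and 10.06 in SSBP1-KD Cont. Its HS arrays read 9.72, 9.61 and 9.57 in SCR and 10.01, 9.92 and 9.92 in SSBP1-KD cells. It was higher by 0.24 in Cont (SE 0.07, adjusted p = 0.0204) and 0.32 in HS (SE 0.07, adjusted p = 0.00388). The Cont call was lost without replicate 3 of SCR Cont (adjusted p = 0.106) or without replicate 2 (adjusted p = 0.0735) or 3 (adjusted p = 0.0745) of SSBP1-KD Cont. Ndufv1, which binds the flavin that receives electrons from NADH, read 11.12, 11.15 and 11.13 in SCR Cont and 11.07, 11.06 and 11.01 in SSBP1-KD Cont. In HS the values were 11.01, 11.04 and 10.94 in SCR and 11.08, 11.03 and 11.01 in SSBP1-KD cells. Its differences of -0.08 (95% interval -0.18 to 0.02) and 0.05 (-0.05 to 0.15) were not called. Ndufs3 was called lower in Cont, by 0.17 (SE 0.04, adjusted p = 0.00419), and its second probe set fell by 0.20 (adjusted p = 0.00439). Ndufs7, an iron-sulphur subunit beside the ubiquinone site, stood at 0.06 in Cont and was called higher in HS, by 0.14 (SE 0.04, adjusted p = 0.022; adjusted p up to 0.101 without 1 array).

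Of the 28 accessory subunits of complex I, which surround and stabilise the core, 3 were called higher and 4 lower in Cont, and 4 higher and 2 lower in HS. The largest rise of any gene in Cont was that of Ndufs6, a small zinc-binding subunit of the NADH-oxidising arm. It read 9.18, 9.03 and 9.09 in SCR Cont and 9.78, 9.56 and 9.41 in SSBP1-KD Cont, a difference of 0.48 (SE 0.08, adjusted p = 0.000268). In HS it read 9.17, 9.29 and 9.14 in SCR and 9.55, 9.48 and 9.50 in SSBP1-KD cells, a difference of 0.31 (SE 0.08, adjusted p = 0.00737). Neither condition showed overlap between the groups. Ndufa9, which sits where the matrix arm meets the membrane arm, read 10.56, 10.57 and 10.54 in SCR Cont against 10.74, 10.84 and 10.74 in SSBP1-KD Cont. In HS it read 10.34, 10.35 and 10.26 in SCR and 10.66, 10.59 and 10.63 in SSBP1-KD cells. It rose by 0.22 in Cont (SE 0.05, adjusted p = 0.00307) and 0.31 in HS (SE 0.05, adjusted p = 0.000177), with no overlap in either condition. Ndufa10, an accessory subunit related to nucleoside kinases, rose by 0.19 (SE 0.05, adjusted p = 0.0138; adjusted p = 0.0576 without the array that stood apart) and 0.31 (SE 0.05, adjusted p = 0.000526). Ndufb8, of the membrane arm, passed the test in HS with 0.26 (SE 0.06, adjusted p = 0.00902; adjusted p = 0.0556 without replicate 3 of SCR HS) and stood at 0.07 in Cont.

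The accessory subunits called lower were Ndufc2, Ndufa6, Ndufv3 and Ndufb10. Ndufc2, of the membrane arm, fell by 0.28 in Cont and 0.24 in HS, and Ndufa6, which binds the mitochondrial acyl carrier protein, by 0.21 and 0.22, with adjusted p between 0.0088 and 0.0465 for these 4 values. Each of the 4 calls was lost without at least 1 array, with adjusted p up to 0.0503 and 0.105 for Ndufc2 and up to 0.155 and 0.167 for Ndufa6. Ndufv3 fell by 0.34 in Cont (SE 0.08, adjusted p = 0.0043) and stood at -0.16 in HS (SE 0.08, adjusted p = 0.156). Ndufb10 fell by 0.23 in Cont (SE 0.08, adjusted p = 0.0421), but by 0.15 with an adjusted p of 0.184 without the array that stood apart. Opposite signs thus occurred within one arm of the complex, Ndufs6 rising and Ndufv3 falling in the arm that oxidises NADH.

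In complex II, succinate dehydrogenase, the catalytic subunits were not called. Sdha, the flavoprotein, read 11.29, 11.36 and 11.28 in SCR Cont and 11.18, 11.24 and 11.22 in SSBP1-KD Cont, a difference of -0.09 (95% interval -0.18 to -0.01; adjusted p = 0.106). In HS it read 11.10, 11.14 and 11.12 in SCR and 11.17, 11.07 and 11.11 in SSBP1-KD cells, a difference of -0.01 (-0.09 to 0.08). Sdhb, the iron-sulphur subunit, read 10.24, 10.21 and 10.16 in SCR Cont and 10.28, 10.18 and 10.24 in SSBP1-KD Cont, a difference of 0.03 (-0.08 to 0.13). Its HS arrays read 10.28, 10.17 and 10.18 in SCR and 10.36, 10.22 and 10.29 in SSBP1-KD cells, a difference of 0.08 (-0.02 to 0.19). Both membrane anchors were called once, in opposite directions. Sdhc read 11.48, 11.56 and 11.56 in SCR Cont and 11.39, 11.37 and 11.38 in SSBP1-KD Cont, a fall by 0.15 (SE 0.04, adjusted p = 0.0149). The adjusted p was 0.0581 and 0.0598 without replicates 2 and 3 of SCR Cont. Sdhd read 10.41, 10.43 and 10.35 in SCR HS and 10.63, 10.50 and 10.61 in SSBP1-KD HS, a rise by 0.18 (SE 0.06, adjusted p = 0.0465), lost without any one of 5 arrays (adjusted p up to 0.155).

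Complex III, which passes electrons from ubiquinol to cytochrome c, had 1 call of 9 genes in each condition. Uqcr10, a small accessory subunit, read 10.09, 10.14 and 10.19 in SCR Cont and 9.94, 9.86 and 9.89 in SSBP1-KD Cont. It fell by 0.24 (SE 0.08, adjusted p = 0.0343), a call lost without any one of 4 arrays (adjusted p up to 0.112). Uqcrc1, a core protein of the complex, read 11.36, 11.17 and 11.28 in SCR HS and 11.60, 11.56 and 11.50 in SSBP1-KD HS and rose by 0.28 (SE 0.05, adjusted p = 0.00141). In Cont it read 11.39, 11.41 and 11.37 in SCR and 11.52, 11.45 and 11.49 in SSBP1-KD cells, and the difference of 0.10 was not called although the arrays did not overlap. The subunits that carry the electrons were not called. Uqcrfs1, the Rieske iron-sulphur protein, read 8.96, 9.05 and 8.95 in SCR Cont and 9.05, 9.002 and 8.91 in SSBP1-KD Cont. Cyc1, cytochrome c1, read 11.57, 11.56 and 11.54 in SCR Cont and 11.46, 11.58 and 11.58 in SSBP1-KD Cont. In Cont their differences were 0.002 (95% interval -0.12 to 0.12) and -0.01 (-0.13 to 0.10). In HS, Uqcrfs1 read 8.95, 8.84 and 8.77 in SCR and 8.92, 8.87 and 8.98 in SSBP1-KD cells, a difference of 0.07 (-0.05 to 0.19). Cyc1 read 11.56, 11.57 and 11.45 in SCR and 11.59, 11.61 and 11.58 in SSBP1-KD cells there, a difference of 0.07 (-0.04 to 0.18).

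Of the 19 genes of complex IV, cytochrome c oxidase, 1 was called higher in Cont, and 2 higher and 1 lower in HS. Cox6c, a small subunit of the membrane part, read 13.23, 13.20 and 13.19 in SCR Cont and 13.34, 13.32 and 13.32 in SSBP1-KD Cont. In HS it read 13.14, 13.06 and 13.07 in SCR and 13.31, 13.28 and 13.31 in SSBP1-KD cells. It rose by 0.12 in Cont (SE 0.04, adjusted p = 0.0362) and by 0.21 in HS (SE 0.04, adjusted p = 0.00146), and its second probe set by 0.14 and 0.17. The Cont call was lost without any 1 of the 6 arrays (adjusted p 0.0533 to 0.104). Cox5a, on the matrix side, read 10.95, 10.84 and 10.75 in SCR Cont against 11.02, 10.94 and 10.96 in SSBP1-KD Cont. In HS the SCR arrays read 10.82, 10.57 and 10.68 and the SSBP1-KD arrays 10.94, 10.87 and 10.89. Its difference was 0.12 in Cont (SE 0.06, adjusted p = 0.152) and 0.21 in HS (SE 0.06, adjusted p = 0.0203; adjusted p up to 0.112 without 1 array). Cox7a2l, the relative of subunit 7a that joins complexes III and IV in supercomplexes, was the one that fell. It read 9.24, 9.46 and 9.36 in SCR HS and 9.04, 9.03 and 9.04 in SSBP1-KD HS, a fall by 0.32 (SE 0.07, adjusted p = 0.00461). In Cont it read 9.03, 9.05 and 9.26 in SCR and 9.004, 9.10 and 8.92 in SSBP1-KD cells and the groups overlapped. SCR cells raised Cox7a2l on heat shock by 0.24 (SE 0.07, adjusted p = 0.0349), and the heat difference in SSBP1-KD cells was 0.03 (SE 0.07, adjusted p = 0.865). These responses differed by -0.21, which was not called (SE 0.10, adjusted p = 0.536). Cox4i1, the common isoform of subunit 4, read 10.92, 10.90 and 10.88 in SCR Cont and 10.85, 10.82 and 10.69 in SSBP1-KD Cont. In HS it read 10.73, 10.72 and 10.76 in SCR and 10.79, 10.70 and 10.75 in SSBP1-KD cells. It differed by -0.12 in Cont (SE 0.04, adjusted p = 0.0791) and by 0.01 in HS. Without the array that stood apart the Cont difference was -0.15 and called (adjusted p = 0.0388). The 8 isoforms that other tissues use, such as Cox4i2, Cox7a1 and Cox8b, had group means of 5.51 to 8.67, and none was called in SSBP1-KD against SCR.

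In complex V, 1 of 17 genes was called lower in Cont, and 3 higher and 1 lower in HS. The 3 genes for subunit c, the rotor of the enzyme, differed among themselves although they encode the same mature protein with different targeting peptides. Atp5g1 read 12.45, 12.28 and 12.25 in SCR HS and 12.63, 12.56 and 12.65 in SSBP1-KD HS, a rise by 0.29 (SE 0.06, adjusted p = 0.0024). In Cont it read 12.55, 12.54 and 12.42 in SCR and 12.67, 12.55 and 12.62 in SSBP1-KD cells, a difference of 0.11 that was not called (SE 0.06, adjusted p = 0.208). Atp5g2 was the gene of complex V called lower in both conditions. Atp5g2 read 12.68, 12.68 and 12.72 in SCR Cont and 12.47, 12.42 and 12.50 in SSBP1-KD Cont. After heat shock it read 12.62, 12.69 and 12.68 in SCR and 12.49, 12.49 and 12.48 in SSBP1-KD cells. It fell by 0.23 in Cont (SE 0.04, adjusted p = 0.00164) and 0.17 in HS (SE 0.04, adjusted p = 0.0102) without overlap. Its other probe sets fell by 0.20 and 0.23 in Cont and by 0.13 and 0.17 in HS, all called. Atp5g3 read 11.53, 11.56 and 11.64 in SCR Cont and 11.67, 11.54 and 11.53 in SSBP1-KD Cont. In HS its arrays read 11.55, 11.44 and 11.48 in SCR and 11.49, 11.43 and 11.51 in SSBP1-KD cells. It was not called, with differences of -0.0013 (95% interval -0.11 to 0.11) and -0.01 (-0.12 to 0.10).

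Atp5pb, subunit b of the peripheral stalk, read 11.81, 11.68 and 11.68 in SCR HS and 12.06, 12.01 and 11.92 in SSBP1-KD HS, a rise by 0.27 (SE 0.07, adjusted p = 0.00673). In Cont the difference was 0.18 (SE 0.07, adjusted p = 0.0624), between 11.84, 11.81 and 11.71 in SCR and 11.85, 12.02 and 12.02 in SSBP1-KD cells, while its second probe set was called there, at 0.29 (adjusted p = 0.000812). Atp5l, subunit g of the membrane part, read 9.05, 9.18 and 8.82 in SCR HS and 9.38, 9.46 and 9.29 in SSBP1-KD HS, a rise by 0.36 (SE 0.09, adjusted p = 0.00995). Without replicate 3 of SCR HS the adjusted p was 0.0591. Its 5 other probe sets differed by 0.30 to 0.35 in HS, 4 of them called. The catalytic subunits of the F1 head were not called. Atp5a1 read 12.15, 12.21 and 12.18 in SCR Cont and 12.24, 12.20 and 12.17 in SSBP1-KD Cont. In HS its arrays read 12.14, 12.17 and 12.14 in SCR and 12.28, 12.18 and 12.23 in SSBP1-KD cells. Its differences were 0.03 (95% interval -0.05 to 0.11) and 0.08 (-0.0018 to 0.16). Atp5b read 13.67, 13.66 and 13.64 in SCR Cont and 13.72, 13.73 and 13.73 in SSBP1-KD Cont. In HS its arrays read 13.68, 13.64 and 13.62 in SCR and 13.77, 13.75 and 13.74 in SSBP1-KD cells. Its differences were 0.07 (-0.01 to 0.15) and 0.10 (0.03 to 0.18; adjusted p = 0.0537).

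**Figure D3:**
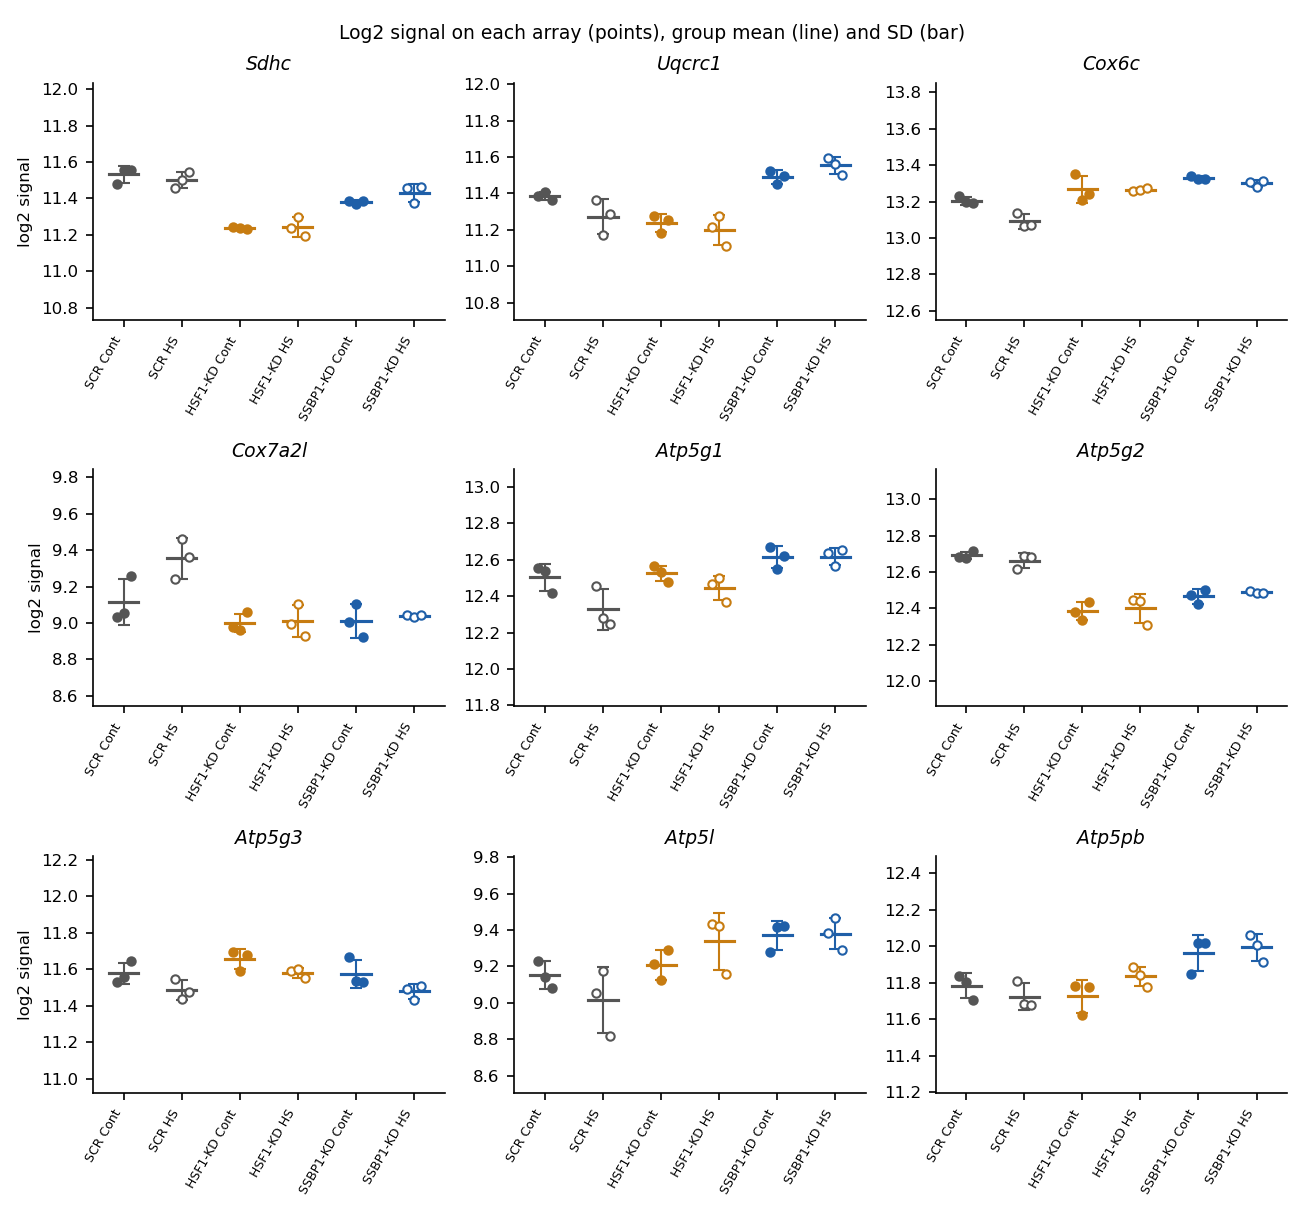
Log2 signal of 9 genes of complexes II to V on each of the 18 arrays; points are arrays (filled, Cont; open, HS), lines are group means and bars SD (n = 3), and every panel spans the same width of log2 signal. Atp5g2 is lower in both knockdowns, Atp5g1 and Uqcrc1 are higher in heat-shocked SSBP1-KD than SCR cells, Cox7a2l is highest in SCR HS, and the SSBP1-KD and SCR arrays of Atp5g3 overlap.

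Averaged over the genes of a complex, no complex moved far from its mean in SCR Cont. Relative to the mean of SCR Cont, the mean log2 signal of complex I was -0.02 in SSBP1-KD Cont and -0.01 in SSBP1-KD HS. That of complex V was 0.04 and 0.05, and those of complexes II, III and IV lay between -0.05 and -0.01. In SCR HS complexes I and V stood at -0.07 and -0.06, each SCR HS array below each SSBP1-KD HS array. Complexes II, III and IV stood at -0.09, -0.06 and -0.08 in SCR HS, with overlap of the arrays. The difference of SSBP1-KD from SCR in HS was above 0 for 15 of 17 genes of complex V and 22 of 34 of complex I, against 64 of all 90. Their medians were 0.10 and 0.047, against 0.025 over all symbols. HSF1-KD HS, set against the same SCR HS arrays, had 13 of 17 and 20 of 34 above 0, against 64 of all 90. The medians there were 0.11 and 0.02, against 0.03 over all symbols. For complex V the HSF1-KD HS arrays, at 0.05, 0.06 and -0.02, also lay above each SCR HS array. The largest shift of a group mean was in the assembly factors of heat-shocked SCR cells, at -0.21. In SSBP1-KD Cont the 3 arrays read -0.23, -0.03 and -0.01 for these factors, so their mean of -0.09 rested on the array that stood apart.

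**Figure D4:**
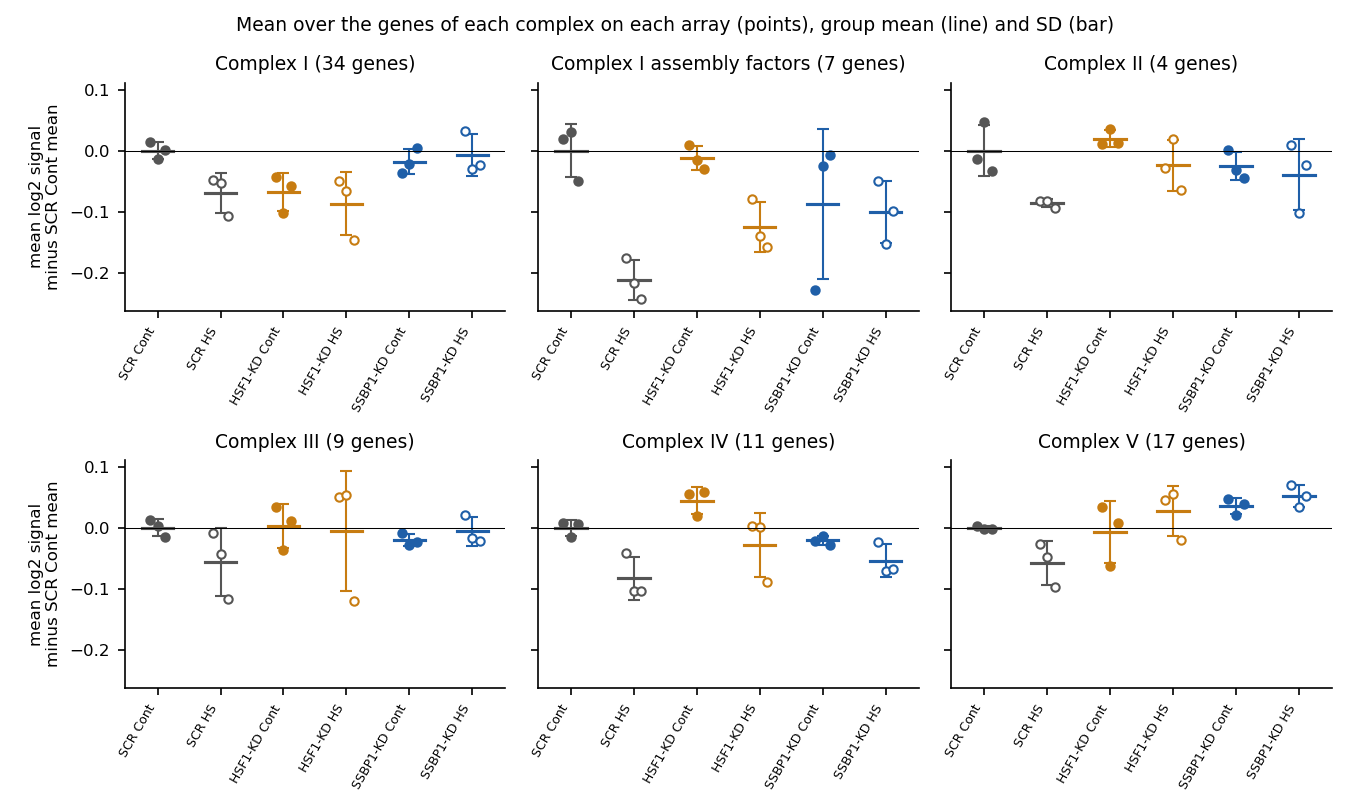
Mean log2 signal over the genes of each complex on each array, as the difference from the mean of the SCR Cont arrays; points are arrays (filled, Cont; open, HS), lines are group means and bars SD (n = 3), and for complex IV the 8 isoforms of other tissues are left out. The group means of complexes I to V lie within 0.1 of 0, and the assembly factors in SCR HS are the farthest, at -0.21.

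The differences of SSBP1-KD from SCR were much alike in Cont and HS, which share no arrays. The same sign was found for 66 of 90 genes (73.3%), against 76.8% of all symbols, and the correlation across genes, which are not independent replicates, was 0.822 against 0.831. All 12 genes called in both conditions kept their direction, as did 4286 of the 4314 symbols called in both. Of the 12 genes, 7 were higher (Ndufaf1, Ndufaf4, Ndufs6, Ndufs1, Ndufa9, Ndufa10 and Cox6c) and 5 lower (Ndufaf3, Ndufaf7, Ndufc2, Ndufa6 and Atp5g2). The 12 make 66.7% of the calls in Cont and 57.1% of those in HS, against 69.5% and 75.4% over all symbols. Of the calls, 9 of 18 in Cont and 13 of 21 in HS were kept whichever single array of the compared groups was left out.

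HSF1 knockdown cells were compared with the same SCR arrays, and the values of both knockdowns are therefore set side by side only. In HSF1-KD Cont 5 genes were called higher and 11 lower (10.9% and 10.1% of all symbols), and in HSF1-KD HS 15 higher and 9 lower (13.1% and 10.7%). Complex I held 8 of the 11 genes called lower in Cont, among them 4 of the 6 core subunits (Ndufs7, Ndufs8, Ndufv1 and Ndufv2, by 0.15 to 0.18), none of which was called in SSBP1-KD Cont. The test between the knockdowns in Cont, given below, called Ndufs7 but not Ndufs8, Ndufv1 or Ndufv2. Each of the 4 calls against SCR was lost without at least 1 array. Examples are SCR Cont replicate 2 for Ndufs7 (adjusted p = 0.0848) and HSF1-KD Cont replicate 3 for Ndufs8 (0.0616). Others are HSF1-KD Cont replicate 3 for Ndufv1 (0.109) and HSF1-KD Cont replicate 2 for Ndufv2 (0.199). The Ndufv1 call was lost whichever single array of the compared groups was left out. The fibroblast markers summed to 15.377 to 15.435 in HSF1-KD Cont and 15.34 to 15.361 in HSF1-KD HS, with 5 of 8 called lower and 1 higher in each. The macrophage markers summed to 10.059 to 10.214 and 10.419 to 10.45, with 1 of 4 called higher in each, and the part of these shifts was not tested. In HSF1-KD, 5 of 16 calls in Cont and 14 of 24 in HS were kept whichever single array of the compared groups was left out. The same direction was called in both knockdowns for 4 genes in Cont (Ndufaf3, Ndufa6, Sdhc and Atp5g2, all lower) and for 9 in HS, where Ndufaf1, Ndufaf4, Cox6c, Sdhd and Atp5l were higher and Ndufaf3, Ndufa6, Atp5g2 and Cox7a2l lower. The share of all symbols called alike in both knockdowns was not counted. Ndufa9 and Ndufa10 were called in opposite directions, lower in HSF1-KD and higher in SSBP1-KD, in Cont as in HS. For Ndufa9 the HSF1-KD call in Cont, -0.17 (SE 0.05, adjusted p = 0.0229), was lost without SCR Cont replicate 1 (adjusted p = 0.064) or 2 (0.0719) or HSF1-KD Cont replicate 2 (0.101).

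The test between the knockdowns takes its differences from HSF1-KD and SSBP1-KD arrays alone, while the spread came from all arrays, SCR included. It called 12 genes higher and 10 lower in SSBP1-KD than in HSF1-KD in Cont, against 12.9% and 16.6% of all symbols. It called 12 higher and 8 lower in HS, against 11.6% and 14.1%. Of these, 15 genes were called in both conditions, 9 higher (Ndufa9, Ndufa10, Ndufb7, Ndufs6, Ndufs7, Ndufaf1, Ndufaf4, Sdhc and Uqcrc1) and 6 lower (Ndufs3, Ndufc2, Ndufaf7, Sdha, Cox6b1 and Cox7a1). They make 68.2% of the calls in Cont and 75% of those in HS, against 66.6% and 76.4% over all symbols. Of the 22 and 20 calls, 15 and 14 were kept whichever single array of the compared groups was left out. The genes with the largest difference in Cont and in HS are given array by array, chosen after their values were seen. Ndufa10 read 11.05, 11.14 and 10.99 in HSF1-KD Cont, 11.37, 11.40 and 11.37 in SCR Cont and 11.65, 11.55 and 11.53 in SSBP1-KD Cont. After heat shock it read 10.93, 10.98 and 10.91 in HSF1-KD, 11.34, 11.19 and 11.27 in SCR and 11.64, 11.52 and 11.58 in SSBP1-KD cells. The 3 kinds of cells kept this order without overlap in both conditions, and the knockdowns differed by 0.52 in Cont (SE 0.05, adjusted p = 4.94e-06) and 0.64 in HS (SE 0.05, adjusted p = 8.11e-07). Ndufb7, of the membrane arm, read 9.61, 9.60 and 9.57 in HSF1-KD Cont against 10.07, 10.05 and 10.02 in SSBP1-KD Cont, and 9.50, 9.40 and 9.36 in HSF1-KD HS against 10.21, 9.99 and 10.17 in SSBP1-KD HS. Ndufb7 fell in HSF1-KD from SCR by 0.49 in Cont (SE 0.06, adjusted p = 0.000104) and 0.60 in HS (SE 0.06, adjusted p = 1.1e-05), while SSBP1-KD differed from SCR by -0.03 and 0.10 and was not called. Cox7a1, the muscle isoform of subunit 7a, was called higher in HSF1-KD than in SCR, by 0.27 in Cont and 0.47 in HS, against -0.09 and 0.03 in SSBP1-KD. Its HSF1-KD call in Cont was lost without any one of 4 arrays (adjusted p up to 0.152). The knockdowns differed by -0.37 (SE 0.08, adjusted p = 0.00403) and -0.44 (SE 0.08, adjusted p = 0.00115). Sdha rose by 0.16 and 0.17 in HSF1-KD (adjusted p up to 0.0663 in Cont without 1 array) and was lower in SSBP1-KD than HSF1-KD by 0.25 (SE 0.04, adjusted p = 0.000283) and 0.17 (SE 0.04, adjusted p = 0.00535).

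**Figure D5:**
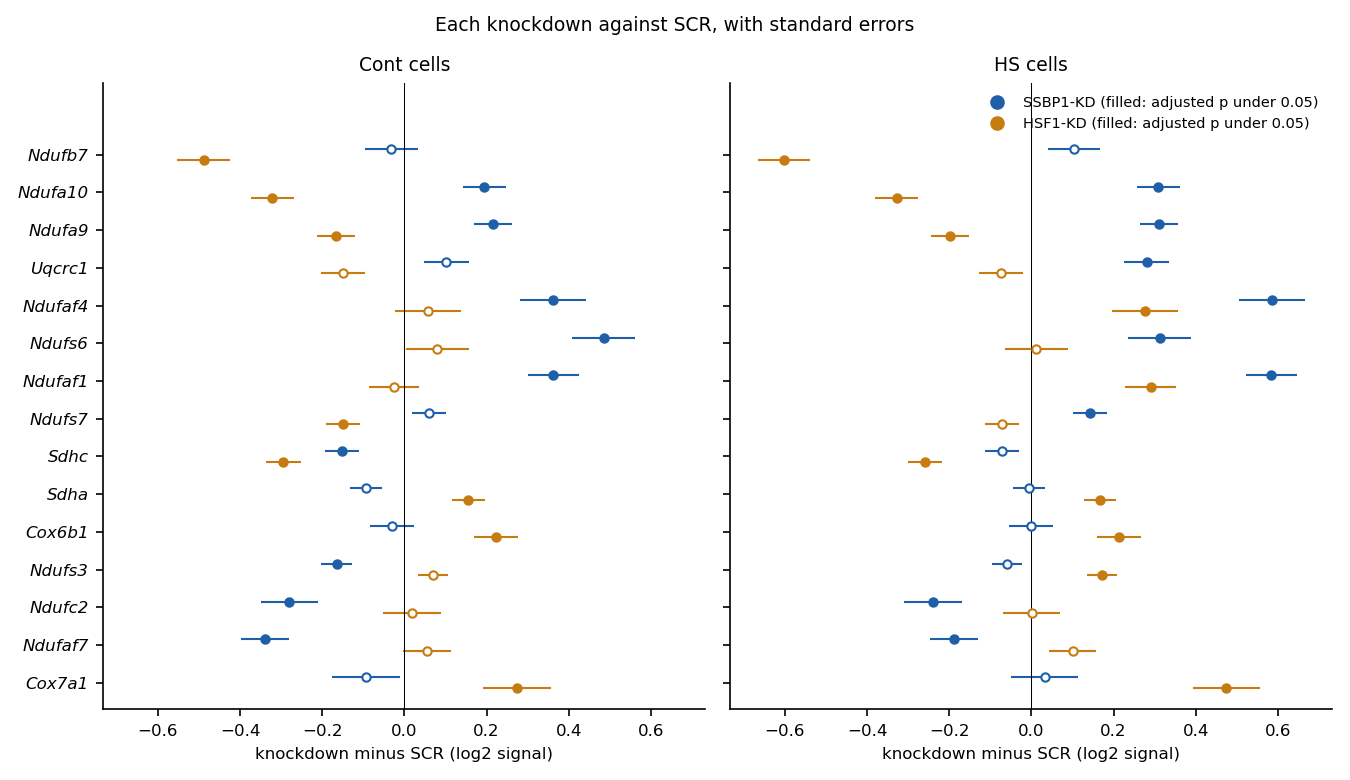
Difference of each knockdown from SCR in log2 signal, with standard errors, for the 15 genes called between SSBP1-KD and HSF1-KD in both conditions, in Cont (left) and HS cells (right); filled points were called against SCR. Ndufa9 and Ndufa10 lie on opposite sides of 0 in the knockdowns, Ndufb7 is far below 0 in HSF1-KD alone, and both comparisons share the SCR arrays.

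On heat shock for 1 h few of these genes were called, at shares near or below those of all symbols. In SCR cells 1 gene was called higher and 8 lower in HS than in Cont, against 7.63% and 8.34% of all symbols. Above 0 were 14 of the 90 differences, with a median of -0.077 against -0.0065 over all symbols. Among the genes called, Ndufaf1 fell most, by 0.58 (SE 0.06, adjusted p = 1.58e-05), followed by Ndufaf5 with -0.34 (SE 0.10, adjusted p = 0.03). Ndufa9 stood at -0.24 (SE 0.05, adjusted p = 0.00224) and Sdha at -0.19 (SE 0.04, adjusted p = 0.00412). The array values of all 4 are given above; the SCR HS arrays lay below the SCR Cont arrays without overlap for each. Cox4i1, Cox5b, Ndufs3 and Atp5j2 fell by 0.12 to 0.16, and Cox7a2l was the gene that rose. The calls of Ndufaf1, Ndufa9 and Sdha were kept whichever single array of the compared groups was left out. The other 6 were lost without at least 1 array (adjusted p up to 0.157, for Cox7a2l). In HSF1-KD cells 1 gene was called higher and 6 lower on heat shock (10.6% and 10.8% of all symbols), and in SSBP1-KD cells 2 higher and 1 lower (4.08% and 2.82%). Ndufaf1 was called lower on heat shock in each kind of cell, by 0.26 in HSF1-KD (SE 0.06, adjusted p = 0.00718) and by 0.36 in SSBP1-KD (SE 0.06, adjusted p = 0.00215). The genes called higher in SSBP1-KD were Ndufa2 and Ndufb10, by 0.20 and 0.30 (adjusted p = 0.0274 and 0.0269), and neither call was kept without replicate 1 of SSBP1-KD Cont.

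The heat response of SSBP1-KD cells minus that of SCR cells was above 0 for 74 of the 90 genes, with a median of 0.079 against -0.0047 over all symbols. The test of this difference called none of them in limma, against 0.181% and 0.311% of all symbols called higher and lower. An unadjusted p under 0.05 was found for 3 genes, Ndufb5 at 0.27 (adjusted p = 0.238), Ndufaf1 at 0.22 (adjusted p = 0.4) and Uqcrc1 at 0.18 (adjusted p = 0.46). By complex, the 7 assembly factors were all above 0, between 0.15 and 0.24, with a median of 0.22. For these factors the SSBP1-KD Cont mean, which is subtracted, rested on the array that stood apart (-0.23, against -0.03 and -0.01). The 4 genes of complex II, the 9 of complex III and the 6 core subunits of complex I were above 0 as well. Of complex V 15 of 17 genes and of complex IV 11 of 19 were above 0. The same arrays enter every one of these values, so the genes are not independent of each other. For HSF1-KD the difference was above 0 for 65 of 90 genes, with a median of 0.05, and none was called (0.01% and 0.336% of all symbols), with 3 genes at an unadjusted p under 0.05.

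Letters of binding sites known from nuclear genes of the respiratory chain were counted in RefSeq windows of 300 bases, from 250 before to 50 after a start site, on both strands. Of the 90 genes 73 matched a window, and the shares are set against those of 17492 protein-coding genes. The NRF1 letters GCATGCGC stood in 12 windows (16.4%, against 3.61%), and the ETS letters CCGGAAG in 17 (23.3%, against 11.9%). The letters AAGATGGC of the factor YY1 stood in 9 (12.3%, against 3.22%) and the heat shock element letters GAANNTTC or TTCNNGAA in 8 (11%, against 13.8%). Among the genes called in SSBP1-KD against SCR in either condition, the YY1 letters were in 5 of 13 windows of genes called higher (38.5%) and in 0 of 11 of genes called lower. They were in 4 of 49 of genes not called (8.16%). The 5 stretches are printed in the direction of the gene, 30 bases each, with the YY1 letters in capitals, because the genes differ in function and in place on the genome and share these letters.
Atp5pb, chr3:105959248-105959277, minus strand, letters at -3 to 5: atgtgcgagcgGCCATCTTgctcctgcccc
Ndufa9, chr6:126849097-126849126, minus strand, letters at 30 to 37: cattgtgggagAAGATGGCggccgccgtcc
Ndufb8, chr19:44555393-44555422, minus strand, letters at 39 to 46: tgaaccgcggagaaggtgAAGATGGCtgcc
Ndufs6, chr13:73328433-73328462, minus strand, letters at 34 to 41: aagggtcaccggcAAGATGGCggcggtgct
Ndufs7, chr10:80249462-80249491, plus strand, letters at 25 to 32: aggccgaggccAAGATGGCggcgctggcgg
In Atp5pb the letters are the reverse complement and span the start site, and in the other 4 genes they lie at 25 to 46 after it. The start site is the first base of the annotated gene in 4 of the 5 and lies 344 bases inside it for Ndufs7. AAGATGGC contains ATG, so in a window that runs past the start it can also be the surroundings of an initiation codon. The first match lay after the start in 8 of the 9 windows of these genes that hold it and in 49.6% of the protein-coding windows that do. NRF1 letters stood in 3 of 13 windows of genes called higher, 3 of 11 of genes called lower and 6 of 49 of genes not called. In the same order, ETS letters stood in 3, 1 and 13, and heat shock element letters in 2, 3 and 3. Of the factors themselves only Yy1 is given, chosen after its values were seen, although Nrf1 and GABP genes were measured too. Yy1 was called higher in SSBP1-KD Cont, by 0.16 (SE 0.04, adjusted p = 0.0151), and stood at 0.11 in HS (SE 0.04, adjusted p = 0.0768). A link of Yy1 to the letters was not tested. These counts describe letters in the windows and say nothing of binding.

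Genes that work beside the respiratory chain were read from lists by function, to be set against the 14.6% of all symbols called higher and 16.5% called lower in SSBP1-KD Cont and the 14.3% and 14.4% in HS. Of 27 measured assembly factors of complexes II to V, 8 were called higher and 3 lower in SSBP1-KD Cont and 9 higher and 2 lower in HS. Bcs1l, which inserts the Rieske protein into complex III, fell by 0.47 in Cont and 0.36 in HS (SE 0.07, adjusted p = 0.000113 in Cont). Cox20, a chaperone of a mitochondrially encoded complex IV subunit, fell by 0.38 and 0.27, and Sdhaf2, which attaches flavin to Sdha, rose by 0.36 and 0.35. Of 10 assembly factors of complex I without an Ndufaf name, 1 was called lower in Cont (Lyrm2, by 0.19) and none in HS. Of 18 regulators of these genes, 7 were called higher and 2 lower in Cont, led by Myc (0.60 in Cont, 0.05 in HS), the mitochondrial transcription factor Tfb2m (0.44, 0.25) and the coactivator Pprc1 (0.37, 0.49). In HS 3 were called higher and 1 lower.

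In glycolysis 1 of 14 genes was called higher and 7 lower in Cont, and 4 higher and 5 lower in HS. Slc16a3, a lactate exporter, fell by 0.73, Pfkl, a phosphofructokinase, by 0.55 and Slc2a1, a glucose transporter, by 0.50 in Cont, and by 0.52, 0.27 and 0.25 in HS. The largest difference of the list in HS was that of Hk2, a hexokinase, which rose by 0.61 (SE 0.09, adjusted p = 0.000109) and was named after its values were seen. In the tricarboxylic acid cycle and pyruvate dehydrogenase, 7 of 17 genes were called higher and 3 lower in Cont and 8 and 3 in HS. Idh3a, a subunit of the NAD-dependent isocitrate dehydrogenase, stood at 0.48 and Idh2, the NADP-dependent enzyme, at -0.47 in Cont. Carriers of ADP, phosphate and electrons gave 3 higher and 2 lower of 11 in Cont and 4 and 1 in HS. Cytochrome c with coenzyme Q synthesis gave 2 and 2 of 13 in Cont and 3 and 2 in HS. Of the 13 subunits encoded in mitochondrial DNA only ND3 and COX2 had a probe set with 1 symbol. They differed by 0.07 and -0.03 in SSBP1-KD Cont and by 0.09 and 0.03 in HS, and neither was called. Whether these probe sets read the mitochondrial genes or nuclear copies was not checked.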

How the data were processed

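RNA of 18 samples of MEF cells was hybridised to 18 arrays, 200 ng of total RNA each. The deposited values are log2 signals, 1 per probe set and array, for 35557 probe sets. The submitters' processing notes name RMA and Partek 6.5, and RMA corrects background, normalises between arrays and summarises probes into probe sets; no value was normalised again here. Groups and replicate numbers follow the sample titles. The precision of array values is limited by the number of arrays, 3 in each group.

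Probe sets were named through the platform annotation, in which 21789 carried 1 symbol, 1621 several and 12147 none. Symbols were updated by gene ID where RefSeq held it, which matched 21698. Of the 90 genes, 17 had more than 1 probe set and the one of highest mean signal was taken; 6 probe sets that carry a symbol of these genes together with another were left out. Older symbols of the array (Atp5g1, Atp5l) were kept where the table gives them.

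A linear model with 1 mean per group was fitted to all 35557 probe sets in limma 3.58.1 (R 4.3.3), with lmFit and eBayes, 12 residual and 2.36 prior degrees of freedom, and p-values were adjusted by Benjamini-Hochberg over all probe sets at 0.05. Tests were 2-sided. The 11 comparisons were each knockdown with SCR, the knockdowns with each other, HS with Cont, and the differences in heat response. Replicate numbers are not stated to pair samples. The scripts were tested on simulated data. Figures were drawn in matplotlib 3.10.9 (Python 3.11.15), and promoter windows came from RefSeq for GRCm38.p6.

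Array values are given for up to 3 genes of each complex, complex I taken with its assembly factors, with the largest called differences in Cont and in HS, for those with the largest heat responses, and for the catalytic subunits whatever their values; others are said to be chosen after their values were seen. The members and gene lists were chosen with earlier results of these data known. The lists cover assembly factors, cytochrome c and coenzyme Q, regulators, the tricarboxylic acid cycle, glycolysis, carriers, mitochondrially encoded subunits and markers of 7 cell types. The alternatives were another centring, quantile normalisation, brighter probe sets, probe sets with 1 symbol, a trended prior, array weights and the compared arrays alone. Further ones were a mean over the probe sets of a symbol, a replicate block and the methods' t-test (Student's, on each probe set). Each array of the compared groups was also left out in turn.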

Additional observations from a re-analysis of the deposited data

How the results depend on the processing

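Main counts of genes called among the 90 were 18 and 21 for SSBP1-KD against SCR in Cont and HS, 16 and 24 for HSF1-KD against SCR, 22 and 20 for SSBP1-KD against HSF1-KD, and 9, 7 and 3 for heat shock in SCR, HSF1-KD and SSBP1-KD cells; the differences in heat response gave 0 under each alternative run. Leaving out 1 array at a time gave 13 to 16 and 16 to 21 for SSBP1-KD against SCR, 8 to 13 and 15 to 26 for HSF1-KD against SCR, 17 to 24 and 17 to 19 between the knockdowns, and 3 to 12, 6 to 9 and 1 to 4 for heat shock. Counts moved by over 1.5 times without SCR Cont replicate 1 (8), SCR Cont replicate 2 (10) or HSF1-KD Cont replicate 2 (9) in HSF1-KD Cont, without SCR HS replicate 3 (15) in HSF1-KD HS, without replicate 2 (3) or 3 (5) of SCR HS or 1 (4) or 2 (4) of SCR Cont for heat shock in SCR cells, and without SSBP1-KD Cont replicate 1 (1) or SSBP1-KD HS replicate 1 (1) or 2 (1) for heat shock in SSBP1-KD cells.

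The compared arrays alone leave fewer degrees of freedom and gave 10 calls for SSBP1-KD Cont, 6 and 15 for HSF1-KD in Cont and HS, 11 between the knockdowns in Cont, 3 for heat shock in HSF1-KD and 0 in SSBP1-KD cells. The methods' t-test with Benjamini-Hochberg adjustment gave 10 for SSBP1-KD HS, 6 and 9 for HSF1-KD in Cont and HS, 12 between the knockdowns in Cont, and 5, 4 and 0 for heat shock in SCR, HSF1-KD and SSBP1-KD cells. Quantile normalisation once more gave 14, 15 and 5 for heat shock, the brighter probe sets 15 in SCR and 13 in HSF1-KD cells, the trended prior 14 in SCR cells, and array weights 24, 11 and 6 for heat shock and 37 for HSF1-KD HS; the cause was not tested.

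The replicate numbers did not pair the arrays: 6 of 45 same-numbered pairs had a correlation above 0.1 (-0.276 to 0.171), and 6 of 18 arrays correlated best with their own number. With the replicate block the counts were 16 and 22 for SSBP1-KD against SCR, 15 and 24 for HSF1-KD against SCR, 23 and 22 between the knockdowns, 11, 7 and 3 for heat shock, and 0 for the differences in heat response.

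Of 2521 alternative values for 158 gene results, 2138 kept direction and call, 357 kept the direction without the call, and 14 reversed, none of them called. The reversals were Uqcrfs1 in Cont at -0.018 with array medians set equal, -0.0022 with array weights and -0.027 to 0.039 without 1 array; Sdha in HS at 0.0057 with array medians set equal and -0.031 to 0.016 without 1 array; Cyc1 in Cont at 0.0061 after quantile normalisation, 0.015 with array weights and -0.035 to 0.025 without 1 array; Sdhb in Cont at -0.016 with array weights; and Cox4i1 in HS at -0.0097 to 0.036 without 1 array. For some dim genes the brighter probe sets gave no value.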
